A study of Mus musculus with 12 samples.

Results

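The interferon response genes described here are 35 genes, chosen by symbol from a list that holds interferon-regulated transcription factors, RNA sensors, enzymes acting on double-stranded RNA, small antiviral proteins and the GTPases that interferon-gamma induces. All 35 were found among the 23997 genes of the expression table, and all 35 averaged 1 FPKM or more, as did 10545 genes in all. FPKM is a level scaled for transcript length and library size. The libraries were made from the left lateral liver lobe of wild type male C57BL/6 mice, 3 mice in each of 4 groups: a diet high in fat and sugar with added curcumin (HFHSD+CUR), the same diet without it (HFHSD), a normal control diet with added curcumin (NCD+CUR) and that diet alone (NCD). All mice were old: 10 were 99 weeks of age, and replicate 3 of NCD+CUR and replicate 3 of NCD were 107 weeks. Curcumin is the yellow polyphenol of turmeric. The mice were neither infected nor given interferon as far as the labels state, so these levels are those of the aged liver on each diet.

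Interferons are secreted proteins that bind receptors on neighbouring cells and, through Janus kinases, phosphorylate STAT proteins. Type I and type III interferons assemble a complex that holds STAT2 and IRF9 and binds the interferon-stimulated response element, whereas interferon-gamma acts through a separate element, the gamma-activated site. The induced genes sense and degrade foreign RNA, block viral assembly and, in turn, make more of the factors that induce them. In the liver, hepatocytes as well as resident macrophages and endothelial cells carry the receptors and express these genes.

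The response element has a core that can be spelled GAAA, any 2 bases, GAAA. This core was looked for on both strands of RefSeq promoter windows (GRCm38.p6, the build also called mm10) running from 250 bases before to 50 bases after an annotated start. Of the 35 genes, 29 had such a window, and 15 of those 29 (51.7%) held the core, against 3.99% of the 27025 genes with a window. The gamma-activated site, spelled TTC, any 3 bases, GAA, was present in 11 of the 29 (37.9%) against 9.55% of all genes. The 2 motifs can overlap within a window, and a match describes letters, not binding. Ifi27, Dhx58, Usp18, Rtp4, Rnf125 and Parp14 had no window. By role, the core was in all 5 GTPase genes, but in 1 of the 5 transcription factor genes, Stat2. Counting genes that had a window, it was in 5 of the 9 that changed in a diet comparison and in 10 of the 20 that did not. Of the 7 genes that changed in a comparison and hold the core, the windows of the 6 with the smallest p are printed (Gbp2 is left out) so that the core can be seen in place, with every core or its reverse complement in capitals. They are read 5′ to 3′ on the strand of the gene. Stat2 is chr10:128270248-128270497 (plus strand), Gbp3 chr3:142559794-142560043 (plus), Oas1a chr5:120907526-120907775 (minus), Igtp chr11:58199306-58199555 (plus) and Gbp7 chr3:142530086-142530335 (plus), each 250 bases up to the start. For Ifih1 the core lies after the start, and 30 bases around it are shown, chr2:62646206-62646235 (minus).
Stat2: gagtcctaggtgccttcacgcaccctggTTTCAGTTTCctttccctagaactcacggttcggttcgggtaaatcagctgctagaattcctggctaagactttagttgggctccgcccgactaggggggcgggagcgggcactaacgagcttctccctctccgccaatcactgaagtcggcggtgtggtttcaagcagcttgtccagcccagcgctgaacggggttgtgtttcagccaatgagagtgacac
Gbp3: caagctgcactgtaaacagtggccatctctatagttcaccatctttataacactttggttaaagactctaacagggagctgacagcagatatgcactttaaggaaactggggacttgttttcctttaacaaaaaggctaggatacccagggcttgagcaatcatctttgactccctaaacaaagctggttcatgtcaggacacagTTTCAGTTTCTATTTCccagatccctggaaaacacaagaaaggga
Oas1a: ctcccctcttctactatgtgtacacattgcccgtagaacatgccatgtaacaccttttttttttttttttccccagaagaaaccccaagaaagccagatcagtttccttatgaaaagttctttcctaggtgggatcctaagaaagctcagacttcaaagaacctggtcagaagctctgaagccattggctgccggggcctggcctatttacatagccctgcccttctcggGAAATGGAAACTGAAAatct
Igtp: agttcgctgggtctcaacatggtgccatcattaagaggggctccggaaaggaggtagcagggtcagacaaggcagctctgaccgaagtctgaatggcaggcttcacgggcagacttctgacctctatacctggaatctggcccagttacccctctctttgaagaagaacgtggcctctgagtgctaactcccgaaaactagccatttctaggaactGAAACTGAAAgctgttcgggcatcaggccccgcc
Gbp7: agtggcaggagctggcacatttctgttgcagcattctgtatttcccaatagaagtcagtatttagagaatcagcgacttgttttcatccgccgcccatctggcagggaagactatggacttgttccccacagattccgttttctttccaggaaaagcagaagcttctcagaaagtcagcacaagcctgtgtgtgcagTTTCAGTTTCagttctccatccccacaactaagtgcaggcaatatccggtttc
Ifih1: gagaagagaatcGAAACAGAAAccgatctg
In the Stat2 window the core began 222 bases before the start, in Gbp7 53 and in Igtp 34. Gbp3 held overlapping cores that began 45 and 39 bases before the start, and Oas1a held overlapping cores at 20 and 14 bases. For Gbp3 and Oas1a the start that the window uses lies inside the RefSeq gene. The outer bound of that gene is 142560016 for Gbp3 (plus strand) and 120907544 for Oas1a (minus strand). The Ifih1 core began at position 33 of the transcript.

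The list was not evenly placed in the genome. Gbp7, Gbp3 and Gbp2 (guanylate-binding proteins) lie in this order on chromosome 3 between 142530336 and 142638008, Ifit2, Ifit3 and Ifit1 on chromosome 19 between 34550550 and 34650009, and Oasl2 and Oasl1 side by side on chromosome 5 between 114896926 and 114937911, all positions from RefSeq on GRCm38.p6. Members of these families resemble one another, so that reads can be split between them, and their separate levels are uncertain to that degree. In RefSeq 13 of the 35 genes overlap another gene. Whether strand was used in counting is not given in the sources used here. Stat2 overlaps Apof, an abundant liver transcript. In limma Apof did not pass, at 488 ± 75.7 FPKM in HFHSD+CUR and 475 ± 54.1 FPKM in HFHSD (SD, n = 3 each, log2 fold change 0.03, adjusted p = 0.875). Ifi27 overlaps Ifi27l2a, whose log2 fold change was 1.04 in HFHSD against NCD (adjusted p = 0.185). In HFHSD+CUR against NCD+CUR Ifi27l2a rose by 1.46 (adjusted p = 0.0979). Rtp4 overlaps Masp1, which fell with curcumin on HFHSD (-1.85, adjusted p = 0.0121). The part of these overlaps in the levels was not tested.

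The tissue held hepatocyte transcripts: the 10 hepatocyte markers, albumin among them, were present in every library with a summed level of 80746 to 100267 FPKM. The libraries correlated with each other between 0.934 and 0.986 on the log2 scale, and no 2 were identical. Between 10192 and 10721 genes reached 1 FPKM in a library. The table holds FPKM and no read counts per gene, and no counting interval is given. One library stood apart in Rn45s, the ribosomal RNA precursor: HFHSD+CUR replicate 1 had 16271 FPKM of it (2.28% of its total). The other 11 libraries had 82.9 to 3339 FPKM, the highest of them HFHSD+CUR replicate 3. HFHSD replicate 1, whose interferon genes were high like those of HFHSD+CUR replicate 1, had 98.0 FPKM of Rn45s. In neutrophil markers HFHSD+CUR replicate 3 stood apart, with a summed level of 108 FPKM against 9.73 to 41.7 FPKM in the other 11 libraries. Because HFHSD+CUR replicate 1 also held high interferon gene levels, the spread of its group and the counts of genes called are given with and without it.

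The diets parted the libraries by their interferon genes. Each gene's log2(FPKM + 0.1) was set against its mean over the 12 libraries, and the median of these deviations over the 35 genes was taken for each library. HFHSD+CUR replicates 1, 2 and 3 had medians of 0.56, 0.26 and -0.12, and HFHSD replicates 1, 2 and 3 had 0.72, 0.34 and -0.08. NCD+CUR had -0.29, -0.37 and -0.30, and NCD had -0.28, -0.34 and -0.22. Each of the 6 mice on HFHSD, with or without CUR, thus lay above each of the 6 on NCD, while the median over all 10545 tested genes stayed between -0.06 and 0.04 in every library.

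**Figure D1:**
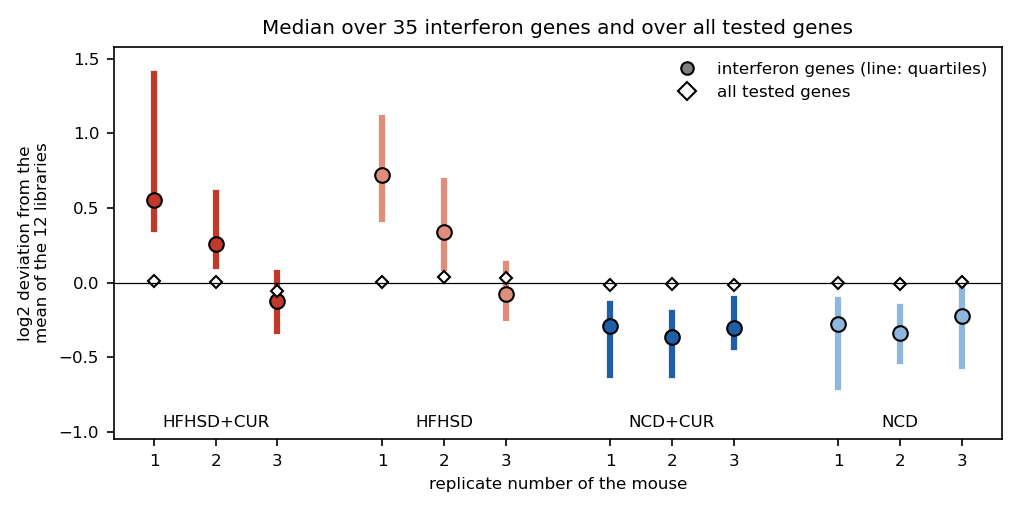
Median over the 35 interferon genes (circles, with lines from the lower to the upper quartile) and over all tested genes (diamonds) of the log2 deviation from the mean of the 12 libraries, for each mouse of the 4 groups. The 6 HFHSD-fed mice lie between -0.12 and 0.72, above the 6 NCD-fed mice at -0.37 to -0.22, and the HFHSD-fed mice of one group lie farther apart.

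Within a group the mice on HFHSD differed from each other more in these genes than the mice on NCD. The SD between mice on the log2 scale had a median over the 35 genes of 0.41 in HFHSD+CUR, 0.38 in HFHSD, 0.13 in NCD+CUR and 0.22 in NCD. Over all tested genes these medians were 0.19 in HFHSD+CUR, 0.15 in HFHSD, 0.15 in NCD+CUR and 0.20 in NCD. The median gene thus also had the wider spread on HFHSD between the groups with curcumin, and the narrower one between the groups without it. Without HFHSD+CUR replicate 1 the median SD of that group was 0.28 over the 35 genes and 0.18 over all genes. Of the interferon genes, 29 of the 35 in HFHSD+CUR and 31 in HFHSD were above the median SD of all genes, against 16 in NCD+CUR and 20 in NCD. Isg15, a ubiquitin-like protein that is joined to other proteins during the antiviral response, shows the contrast: its coefficient of variation was 72.3% in HFHSD+CUR (59.6% without replicate 1) and 54.6% in HFHSD, but 6.10% in NCD+CUR and 16.9% in NCD. On HFHSD most of the 35 genes ranked the mice alike, and ranks over all tested genes were not counted. In HFHSD+CUR replicate 1 was the highest of its group for 30 of the 35 genes and replicate 3 the lowest for 30, and in HFHSD these numbers were 31 and 28. In NCD+CUR no replicate was the highest for more than 14 genes, and in NCD for more than 16. The labels do not say what a replicate number stands for.

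**Figure D2:**
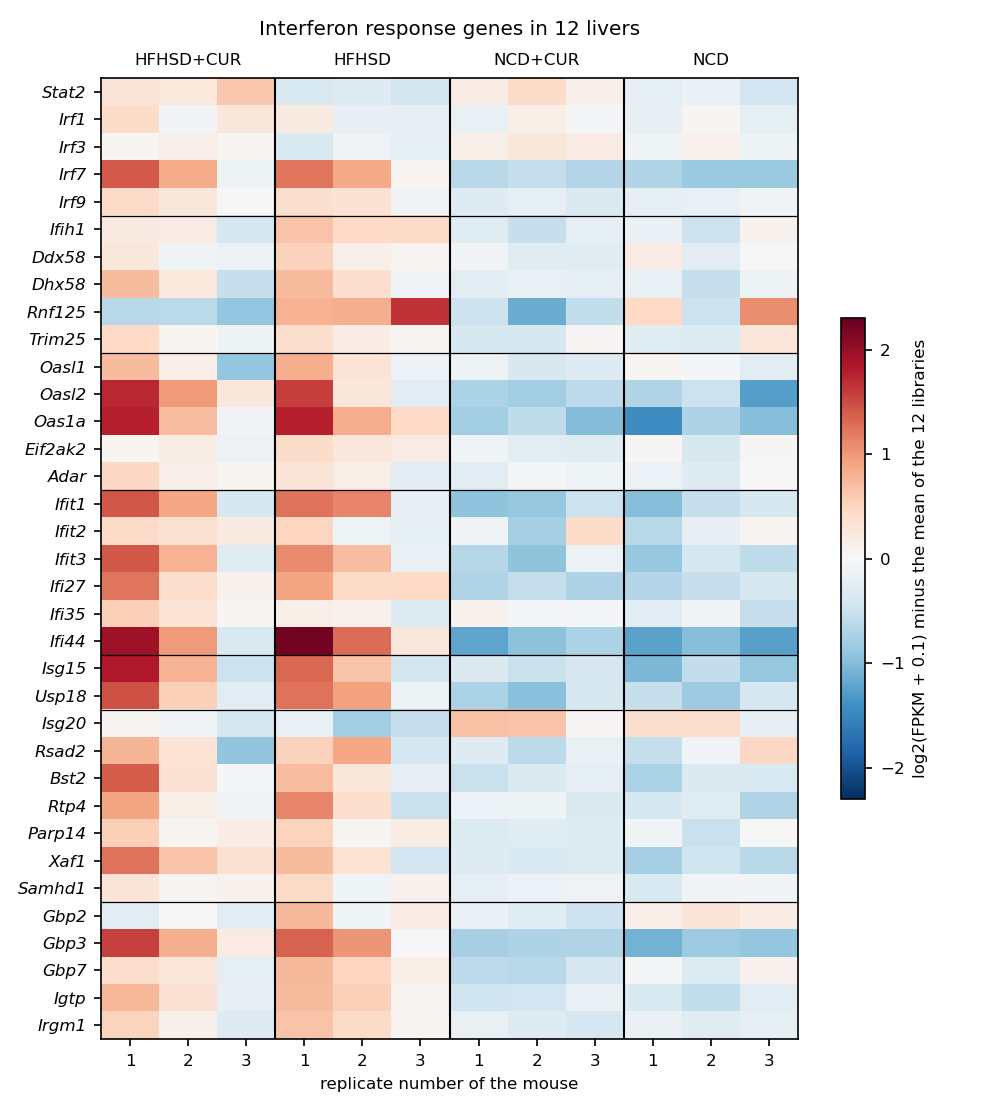
Deviation of each of the 35 genes from its mean over the 12 libraries, on log2(FPKM + 0.1), with 1 column per mouse and 1 row per gene, genes grouped by role in the order transcription factors, RNA sensors, double-stranded RNA enzymes, IFIT and IFI proteins, ISG15 and its protease, other effectors and GTPases. Red is above and blue below the mean. Most genes are red in replicates 1 and 2 of both HFHSD-fed groups and paler in replicate 3, while Stat2, Irf3, Rnf125 and Isg20 follow other patterns.

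The first comparison asked how the interferon genes differed between the diets without curcumin. In HFHSD livers 7 of the 35 genes rose and none fell at an adjusted p under 0.1, against a background of 2.74% of all tested genes that rose and 1.87% that fell. These were Ifi27, Gbp3, Oas1a, Irf7, Ifih1, Ifi44 and Igtp. Without multiple-test adjustment, 20 were higher at p under 0.05 (background 10.2%) and 1, Isg20, was lower (background 8.44%). Every HFHSD mouse was above every NCD mouse for 20 genes (background 12.5%), and none had every HFHSD mouse below (background 10.3%). The estimate was above 0 for 32 of the 35, with a median log2 fold change of 0.59, while the median of all genes was 0.03.

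Among the transcription factors Irf7, which drives the production of type I interferon and is itself an interferon target, was the one that rose with HFHSD. It had 131, 102 and 57.9 FPKM in HFHSD livers, against 34.6, 31.1 and 30.9 FPKM in NCD livers. The lowest HFHSD mouse thus lay above the highest NCD mouse, and the log2 fold change was 1.51 (SE 0.36, adjusted p = 0.0619, limma). Irf9, the DNA-binding partner of STAT2, had 22.0, 21.6 and 16.2 FPKM in HFHSD and 14.7, 15.1 and 16.2 FPKM in NCD, a log2 fold change of 0.37 (adjusted p = 0.190). Irf1, an early interferon-gamma target, had 30.9, 23.6 and 23.5 FPKM in HFHSD and 23.4, 27.4 and 23.0 FPKM in NCD, with overlapping ranges. For Stat2 and Irf3, which is present before infection and acts directly behind the RNA sensors, the estimates were -0.09 and -0.18 and neither passed the test.

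Of the RNA sensors, Ifih1 (MDA5, which detects long double-stranded RNA) rose in HFHSD livers. It had 11.0, 9.69 and 9.53 FPKM in HFHSD, against 6.28, 4.99 and 7.45 FPKM in NCD, and the groups did not overlap (log2 fold change 0.70, SE 0.18, adjusted p = 0.0663). Ddx58 (RIG-I) and Dhx58 (LGP2, which assists MDA5) had estimates of 0.25 and 0.61, and those of Trim25, a ubiquitin ligase that activates RIG-I, and Rnf125, a ligase that marks RIG-I for degradation, were 0.32 and 0.75. None of these 4 passed, with adjusted p from 0.266 to 0.433.

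The enzymes that act on double-stranded RNA were led by Oas1a, a synthetase of the oligoadenylates that switch on RNase L. Its level was 15.7, 8.09 and 6.21 FPKM in HFHSD livers, against 1.61, 2.70 and 2.24 FPKM in NCD livers. The difference of 2.06 on the log2 scale (SE 0.45, adjusted p = 0.0507) corresponds to a 4.18-fold higher level, with no overlap. The sequence of Oas1a is close to that of Oas1g, so that the split of reads between them is uncertain. Oas1g also rose, with 2.74 ± 1.78 FPKM in HFHSD and 0.496 ± 0.295 FPKM in NCD (SD, n = 3 each; adjusted p = 0.0496). The other enzymes did not pass: estimates were 1.35 for Oasl2, 0.41 for Oasl1, which restrains Irf7 translation in the mouse, 0.40 for Eif2ak2 (PKR, which halts translation) and 0.21 for Adar, which edits adenosines in double-stranded RNA.

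Ifi27 and Ifi44 rose among the IFIT and IFI genes. Ifi27, a small mitochondrial protein and among the most abundant of the 35, had 326, 236 and 241 FPKM in HFHSD livers, against 109.9, 121 and 136 FPKM in NCD livers. Its log2 fold change of 1.12 (SE 0.24) had the smallest adjusted p of the list, 0.0344. Ifi44 had 17.1, 8.85 and 4.29 FPKM in HFHSD, against 1.46, 1.76 and 1.44 FPKM in NCD, the largest difference of the 35 (log2 fold change 2.41, SE 0.58, adjusted p = 0.0700). Both genes had every HFHSD mouse above every NCD mouse. Ifit1, which binds foreign RNA, and its partner Ifit3 had estimates of 1.35 and 1.16 with adjusted p of 0.167 and 0.192. Ifit2, at about the floor of the filter with means of 1.22 FPKM in HFHSD and 0.950 FPKM in NCD, and Ifi35 had estimates of 0.32 and 0.25.

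The GTPases Gbp3 and Igtp also rose. Guanylate-binding proteins, of which Gbp3 is one, coat the vacuoles of intracellular pathogens. Gbp3 had 19.5, 15.4 and 7.63 FPKM in HFHSD livers, against 3.52, 4.20 and 4.04 FPKM in NCD livers (log2 fold change 1.73, SE 0.36, adjusted p = 0.0425). Igtp had 41.0, 36.2 and 26.1 FPKM in HFHSD, against 19.5, 16.8 and 20.7 FPKM in NCD (log2 fold change 0.83, SE 0.22, adjusted p = 0.0741). Neither gene overlapped between the groups. The estimates for Irgm1, Gbp7 and Gbp2 were 0.59, 0.55 and 0.08, and none passed.

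The remaining effectors did not pass the test. Bst2 (tetherin, which holds budding virus on the cell surface) was the most abundant of all 35 and had 468, 342 and 250.1 FPKM in HFHSD livers, against 174, 227 and 223 FPKM in NCD livers. All HFHSD mice were higher, but the log2 fold change of 0.73 had an adjusted p of 0.259. Isg15 had 80.5, 50.7 and 24.1 FPKM in HFHSD and 15.7, 21.7 and 17.5 FPKM in NCD, again without overlap (log2 fold change 1.34, adjusted p = 0.243). Usp18, which removes ISG15 from proteins and dampens the type I receptor, had an estimate of 1.27, Xaf1, a binding partner of the apoptosis inhibitor XIAP, 0.81 (3.32, 4.09 and 3.62 FPKM in NCD livers), and Rtp4, a chaperone of membrane receptors, 0.78. Parp14 (an ADP-ribosyltransferase), Rsad2 (viperin) and Samhd1 (which depletes deoxynucleotides) had 0.43, 0.38 and 0.30. Isg20, an RNA exonuclease, had the lowest estimate of the list, -0.69 (adjusted p = 0.129), with 3.55, 2.25 and 2.75 FPKM in HFHSD and 5.17, 5.30 and 3.49 FPKM in NCD.

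These calls rest on few mice. Without HFHSD replicate 1, without NCD replicate 1 or without NCD replicate 2, none of the 35 genes passed, and without HFHSD replicate 2 Ifi27 alone did. Without HFHSD+CUR replicate 3 or without NCD replicate 3, 11 rose, and with the other 6 libraries left out in turn 5 to 9 did. Under these omissions the number of all tested genes called moved between 55 and 1747, against 486 with all libraries. Both mice of 107 weeks were on NCD diets, and with age as a covariate 13 genes rose and Isg20 fell, with 2040 of all tested genes called.

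**Figure D3:**
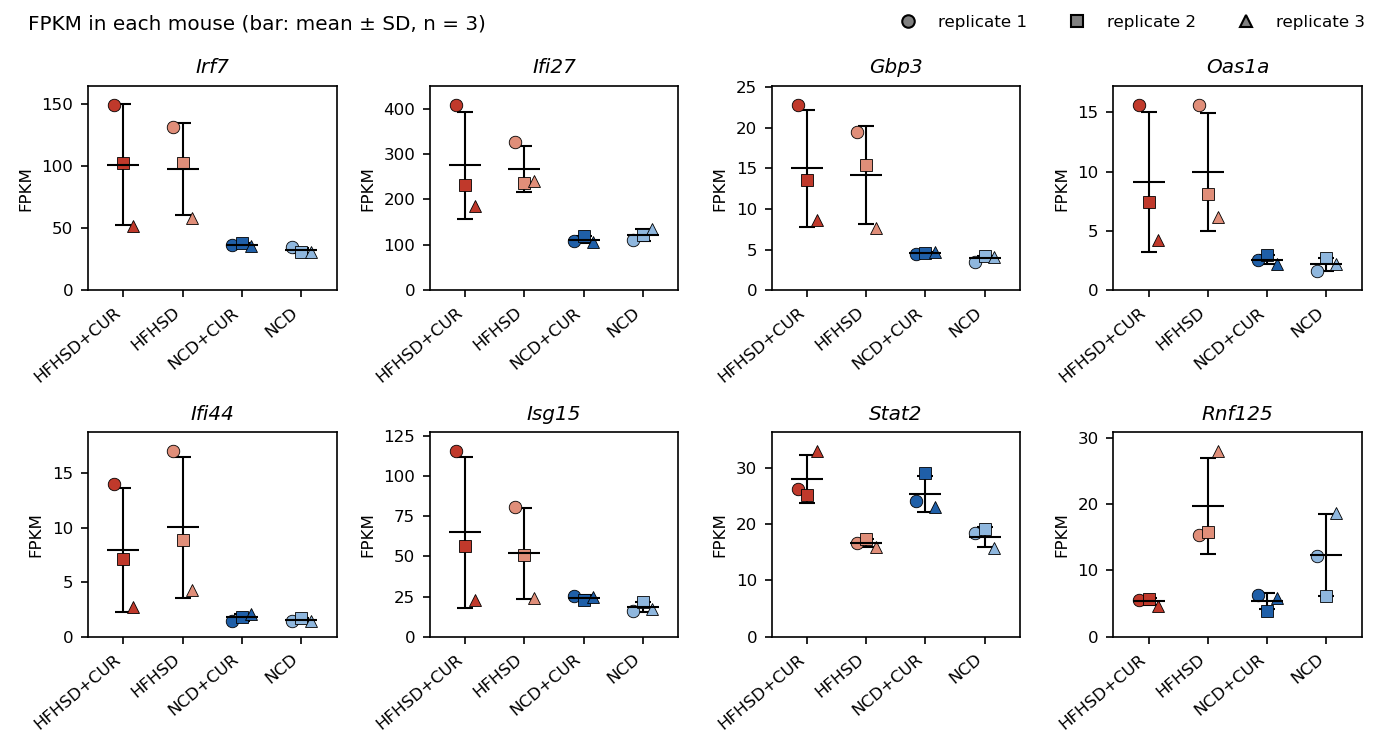
FPKM of 8 genes in each mouse (marker shape gives the replicate number), with the mean and SD of the 3 mice of a group as bars and FPKM axes that start at 0. Irf7, Ifi27, Gbp3, Oas1a and Ifi44 are higher in each HFHSD-fed mouse than in any NCD-fed one, and Isg15 overlaps through replicate 3. Stat2 is higher in each CUR-fed mouse than in any mouse on the same diet without CUR. Rnf125 is lower in each HFHSD+CUR mouse than in any HFHSD mouse, and overlaps between NCD+CUR and NCD.

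The same diet contrast was made between the groups that received curcumin, in separate animals. In HFHSD+CUR livers 6 of the 35 genes rose relative to NCD+CUR livers (background 2.07%) and none fell (background 1.55%). At unadjusted p under 0.05, 15 were higher (background 8.82%) and 1, Isg20, was lower (background 8.65%). All HFHSD+CUR mice were above all NCD+CUR mice for 16 genes (background 11.4%) and below for Irf3 (background 10.6%). The estimates were above 0 for 33 of 35, with a median log2 fold change of 0.47 where that of all genes was 0.01.

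Ifi27, Gbp3 and Irf7 rose here as well, and Xaf1, Irf9 and Gbp7 joined them. Under other settings or with libraries left out, the call of Irf7 was lost in 17 of 27 fits. That of Gbp7 was lost in 17 of 26 and that of Irf9 in 14 of 27. Those of Xaf1, Gbp3 and Ifi27 were lost in 9, 6 and 2 of 27. Ifi27 had 409, 232 and 185 FPKM in HFHSD+CUR, against 108, 119.5 and 106 FPKM in NCD+CUR (log2 fold change 1.22, SE 0.24, adjusted p = 0.0417). Gbp3 had 22.8, 13.6 and 8.66 FPKM in HFHSD+CUR, against 4.41, 4.60 and 4.67 FPKM in NCD+CUR (1.59, SE 0.36, adjusted p = 0.0749). For Irf7 the levels were 149, 102 and 51.6 FPKM in HFHSD+CUR, against 36.0, 38.2 and 35.4 FPKM in NCD+CUR (1.34, SE 0.36, adjusted p = 0.0988). In each of these 3 genes HFHSD+CUR replicate 1 was far above the other mice, yet the lowest HFHSD+CUR mouse still exceeded the highest NCD+CUR mouse. Xaf1 had 13.6, 8.94 and 7.26 FPKM in HFHSD+CUR, against 4.59, 4.40 and 4.53 FPKM in NCD+CUR (1.07, SE 0.27, adjusted p = 0.0820). Irf9 had 23.3, 20.4 and 16.9 FPKM in HFHSD+CUR, against 13.9, 14.5 and 13.5 FPKM in NCD+CUR (0.52, SE 0.14, adjusted p = 0.0959). Gbp7 had 4.59, 4.19 and 2.90 FPKM in HFHSD+CUR, against 2.23, 2.16 and 2.59 FPKM in NCD+CUR (0.70, SE 0.20, adjusted p = 0.0979). None of the 3 overlapped between the groups. Bst2 did not pass, with 750.5, 362 and 276 FPKM in HFHSD+CUR and 201, 228 and 247 FPKM in NCD+CUR, and neither did Irf1, with 36.1, 25.7 and 32.1 FPKM in HFHSD+CUR and 23.7, 29.8 and 26.4 FPKM in NCD+CUR. Bst2 did not overlap between these groups and Irf1 did.

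Genes that rose with HFHSD in mice without curcumin and missed the threshold here kept a positive estimate: Ifi44 1.81 (adjusted p = 0.152), Oas1a 1.60 (0.114), Igtp 0.66 (0.152) and Ifih1 0.34 (0.342). Their HFHSD+CUR levels were 14.02, 7.13 and 2.76 FPKM for Ifi44, against 1.48, 1.81 and 2.12 FPKM in NCD+CUR. Those of Oas1a were 15.7, 7.41 and 4.22 FPKM in HFHSD+CUR, against 2.53, 2.96 and 2.196 FPKM in NCD+CUR. In both genes the 2 groups stayed apart, and the spread between the HFHSD+CUR mice was wide. Igtp had 42.2, 31.3 and 21.8 FPKM in HFHSD+CUR and 18.1, 18.3 and 22.0 FPKM in NCD+CUR, which overlapped. Without HFHSD+CUR replicate 1, the library with the high ribosomal RNA precursor, Ifi27 alone passed, as it did without HFHSD+CUR replicate 2. None passed without NCD+CUR replicate 1 or replicate 2, and without HFHSD+CUR replicate 3, 13 did. Leaving out HFHSD replicate 2 or NCD replicate 1, which enter this comparison through the shared estimate of spread alone, left 2, and the other 5 omissions 4 to 6. All tested genes called ranged from 5 to 635, against 381 with all libraries.

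A contrast of the 6 HFHSD-fed with the 6 NCD-fed mice, averaged over the arms with and without curcumin, was added after the data had been seen and uses the same libraries as the 2 comparisons above. In it 20 of the 35 genes rose (background 10.5%) and Isg20 fell (background 10.0%). This fit takes the 12 mice as independent, although same-numbered mice of a diet deviated together. On the means of the same-numbered mice (3 sets against 3), 6 genes rose (background 2.56%), namely Gbp3, Ifi27, Igtp, Irf7, Oas1a and Xaf1, and none fell (background 2.36%). Without HFHSD+CUR replicate 1, 17 rose (background 7.86%) and Isg20 fell (background 7.99%), Isg15, Eif2ak2 and Samhd1 no longer passing. The 20 genes that rose over all mice were Irf7, Irf9, Ifih1, Oas1a, Oasl2, Eif2ak2, Ifit1, Ifit3, Ifi27, Ifi44, Isg15, Usp18, Bst2, Parp14, Xaf1, Samhd1, Gbp3, Gbp7, Igtp and Irgm1. Every HFHSD-fed mouse was above every NCD-fed mouse for 11 genes (background 2.33%): Irf7, Irf9, Ifit1, Ifi27, Ifi44, Oasl2, Oas1a, Usp18, Bst2, Gbp3 and Parp14. None had every HFHSD-fed mouse below (background 1.66%). The averaged log2 fold changes of these 11 ran from 0.44 for Irf9 to 2.11 for Ifi44. Isg20 fell by 0.64 on the log2 scale (adjusted p = 0.0215, and 0.118 on the means of same-numbered mice), with overlap between the diets. Irf1, Irf3, Stat2, Gbp2, Rsad2, Ifit2, Oasl1 and Rnf125 were among the 14 that did not pass.

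Markers of other liver cells moved in part with the diet. Of 7 endothelial markers tested, 5 fell in HFHSD relative to NCD (median log2 fold change of the list -1.07), their summed level being 20.9 to 33.3 FPKM in HFHSD and 50.8 to 55.5 FPKM in NCD livers, and 2 of 6 stellate cell markers fell. Between HFHSD+CUR and NCD+CUR none of the 7 endothelial markers passed (median -0.53), and 1 of 6 stellate cell markers fell. The summed endothelial levels there overlapped, at 24.9 to 57.9 FPKM in HFHSD+CUR and 50.6 to 64.5 FPKM in NCD+CUR. None of the 10 Kupffer cell and macrophage markers passed, with summed levels of 152 to 280.0 FPKM in HFHSD and 141 to 309.5 FPKM in NCD livers that overlapped. B, T and NK cell markers were low in every library (summed levels at most 13.4, 5.98 and 6.66 FPKM). In bulk liver, fewer cells of a type and less RNA per cell cannot be told apart, and the part of cell composition in the interferon gene levels was not tested.

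The next comparison asks what curcumin did on each diet. On HFHSD, 2 of the 35 genes rose with curcumin (background 13.1%) and 3 fell (background 17.2%), shares below those of all tested genes. Stat2 and Irf3 rose, and Rnf125, Ifih1 and Gbp2 fell. At unadjusted p under 0.05 the same 2 were higher (background 15.6%) and the same 3 lower (background 20.5%). Every HFHSD+CUR mouse was above every HFHSD mouse for Stat2 and Irf3 (background 17.9%) and below for Rnf125, Ifih1 and Eif2ak2 (background 22.8%). The median log2 fold change of the 35 was -0.01, and -0.03 over all genes. For the genes that stood out between the diets, the estimates were near 0: Irf7 0.00 (95% interval -0.78 to 0.79), Ifi27 -0.03 (-0.54 to 0.48) and Gbp3 0.08 (-0.72 to 0.87). Intervals this wide do not show that the groups were alike. They rest on one estimate of spread for all 4 groups, to which the closer NCD-fed mice contribute. For Irf7 the SE was 0.36, while its SD between mice on the log2 scale was 0.77 in HFHSD+CUR and 0.61 in HFHSD. Such an interval can be too narrow for the HFHSD-fed mice.

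Stat2, which carries the transactivation domain of the type I interferon complex, had 26.2, 25.1 and 33.0 FPKM in HFHSD+CUR livers, against 16.7, 17.3 and 15.9 FPKM in HFHSD livers. The groups were well apart, with a 1.67-fold higher level (log2 fold change 0.74, SE 0.14, adjusted p = 0.00903, limma). Irf3 had 37.0, 39.0 and 37.3 FPKM in HFHSD+CUR, against 28.2, 33.9 and 30.7 FPKM in HFHSD, a smaller difference of 0.29 (SE 0.11, adjusted p = 0.0784) that also did not overlap. Irf1 had 36.1, 25.7 and 32.1 FPKM in HFHSD+CUR and 30.9, 23.6 and 23.5 FPKM in HFHSD (0.26, adjusted p = 0.241).

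Rnf125 showed the largest difference of the list. Its level was 5.61, 5.69 and 4.70 FPKM in HFHSD+CUR livers, against 15.3, 15.7 and 28.0 FPKM in HFHSD livers, and its log2 fold change was -1.81 (SE 0.36, adjusted p = 0.0128). All HFHSD+CUR mice lay below all HFHSD mice. Ifih1 had 8.09, 7.97 and 5.34 FPKM in HFHSD+CUR, against 11.0, 9.69 and 9.53 FPKM in HFHSD (-0.52, SE 0.18, adjusted p = 0.0592), without overlap. It is the one gene of the 35 that passed in both this comparison and that of HFHSD with NCD, in opposite directions, and both use the same 3 HFHSD livers. Gbp2 had 3.28, 3.98 and 3.27 FPKM in HFHSD+CUR, against 6.67, 3.68 and 4.54 FPKM in HFHSD (-0.45, SE 0.19), and at an adjusted p of 0.0997 it was at the edge of the threshold, with ranges that overlapped. Gbp7 did not pass, at 4.59, 4.19 and 2.90 FPKM in HFHSD+CUR and 5.85, 4.90 and 3.83 FPKM in HFHSD.

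Same-numbered mice of HFHSD+CUR and HFHSD deviated together over the tested genes, and a fit that treats the number as a block (within diet) called more genes. In it 8 of the 35 rose with curcumin on HFHSD (background 20.2%) and 7 fell (background 25.4%), shares near those of all tested genes. With each library's trend with GC content and length removed as well, the block left 3 that rose (Stat2, Oasl2 and Xaf1, background 16.0%) and 4 that fell (Rnf125, Ifih1, Gbp2 and Oasl1, background 28.5%). With the block alone, Bst2, Ifi35, Irf1, Isg20, Oasl2 and Xaf1 passed upward in addition to Stat2 and Irf3, and Gbp7, Ifi44, Irgm1 and Oasl1 passed downward in addition to Rnf125, Ifih1 and Gbp2. Of these added genes Xaf1 had the smallest adjusted p with the block, 0.00634 (0.159 without it), at a log2 fold change of 0.55. The estimates themselves do not change with the block. The labels give the replicate number no meaning, and the block is reported because these same data deviated together by number. Its added calls thus depend on a pairing that the labels do not give. Xaf1 was 13.6, 8.94 and 7.26 FPKM in HFHSD+CUR replicates 1, 2 and 3, and 9.40, 7.05 and 4.16 FPKM in the HFHSD replicates, so that each HFHSD+CUR mouse was above the HFHSD mouse of its own number. Likewise Ifi44 was lower in each numbered pair, and its log2 fold change of -0.40 had an adjusted p of 0.0429 with the block and 0.648 without it, but it did not pass with the block once the GC and length trend was removed.

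Of the 5 calls on HFHSD, those of Stat2 and Rnf125 had the smallest adjusted p and were each lost in 1 of 29 alternatives, whereas that of Irf3 was lost in 13 of 29, that of Ifih1 in 8 of 29 and that of Gbp2 in 18 of 28. Without replicate 3 of both HFHSD-fed groups, an omission chosen after seeing the data, 0 of the 35 and 0 of all tested genes passed. With single libraries left out, 1 to 3 of the 35 genes rose and 1 to 3 fell (1228 to 3495 of all tested genes called). A single gene rose without HFHSD+CUR replicate 1, HFHSD+CUR replicate 3, HFHSD replicate 3 or NCD+CUR replicate 2. A single gene fell without HFHSD+CUR replicate 3, HFHSD replicate 1 or HFHSD replicate 3. Of markers of other cells, 3 of 3 tested B cell genes rose in HFHSD+CUR, with a summed list level of 9.64 to 13.4 FPKM, against 3.97 to 9.18 FPKM in HFHSD, as did 2 of 7 endothelial, 2 of 4 plasmacytoid dendritic cell, 1 of 6 stellate cell and 1 of 4 cholangiocyte markers. The plasmacytoid dendritic cell list holds Bst2, also one of the 35, and its defining marker Siglech was at most 0.152 FPKM. Of 10 hepatocyte markers 1 rose and 2 fell (median log2 fold change of the list -0.29), and none of 10 Kupffer cell markers passed. The part of these cells in the differences of the interferon genes was not tested.

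**Figure D4:**
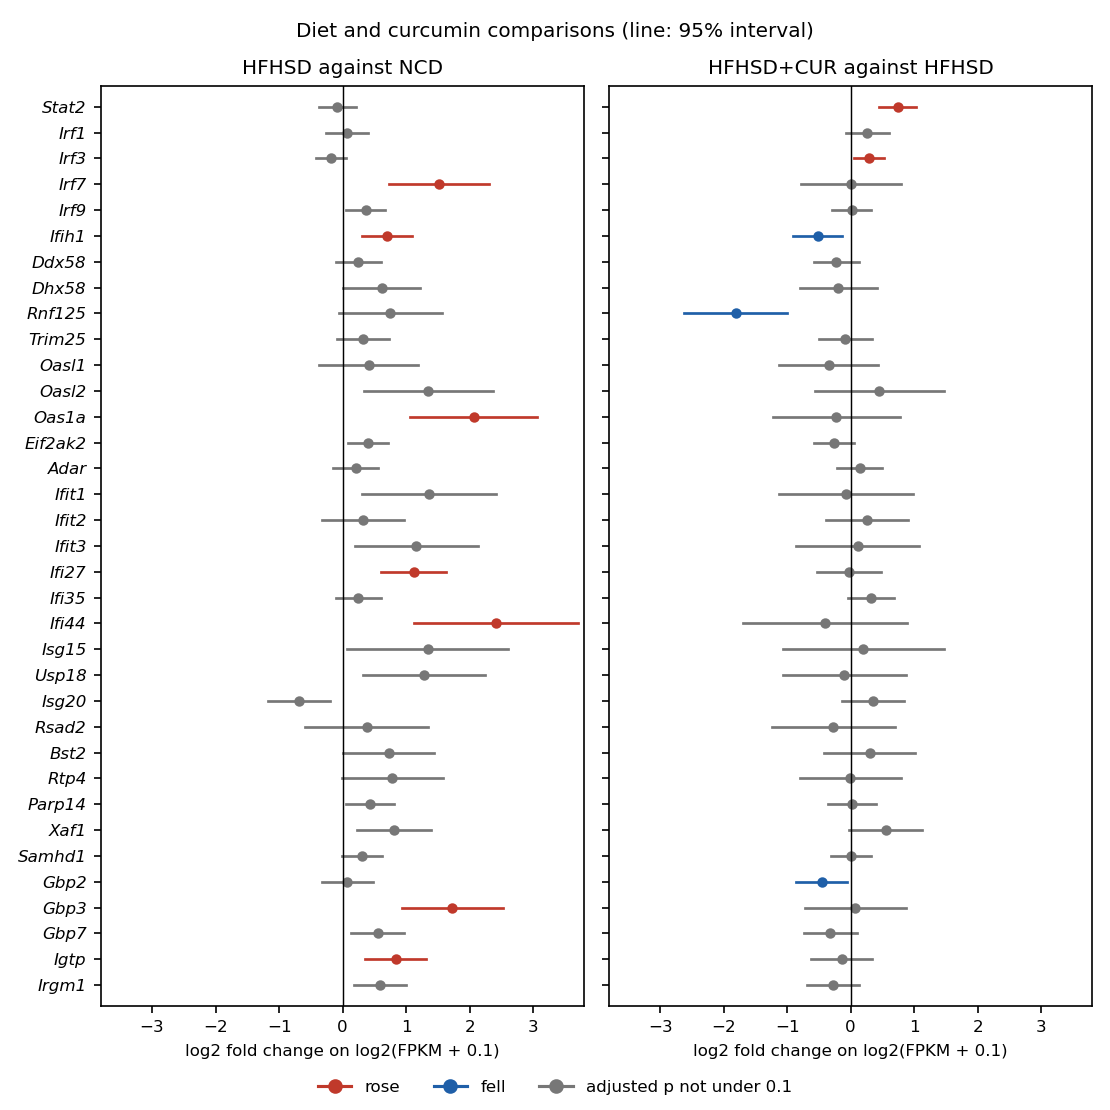
Log2 fold change with its 95% interval for each of the 35 genes in HFHSD against NCD (left) and HFHSD+CUR against HFHSD (right), red where the gene rose, blue where it fell and grey where the adjusted p was not under 0.1. On the left 32 of 35 points lie above 0, and on the right 17 do, with Stat2 at 0.74 and Rnf125 at -1.81 at the ends.

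On NCD none of the 35 genes rose or fell with curcumin at an adjusted p under 0.1 by limma, as was the case for all tested genes (0.00% in both directions), the smallest adjusted p of the 35 being 0.290. This fit shares one estimate of spread over all 4 groups, so the wider spread on HFHSD enters it. For Irf7 the SE was 0.36, while its SD on the log2 scale was 0.06 in NCD+CUR and 0.09 in NCD. The absence of calls on NCD thus does not show that curcumin left these genes unchanged. At unadjusted p under 0.05, Stat2 was higher (background 6.83%) and Rnf125, Gbp2 and Gbp7 were lower (background 7.17%). Every NCD+CUR mouse was above every NCD mouse for 7 genes (Stat2, Irf3, Irf7, Ifi35, Isg15, Gbp3 and Xaf1, background 9.53%) and below for Gbp2, Gbp7 and Irf9 (background 10.1%). Stat2 had 24.1, 29.0 and 23.0 FPKM in NCD+CUR livers, against 18.4, 19.1 and 15.7 FPKM in NCD livers, a log2 fold change of 0.51 (95% interval 0.22 to 0.81) with no overlap. Rnf125 had 6.28, 3.95 and 5.86 FPKM in NCD+CUR and 12.1, 6.18 and 18.6 FPKM in NCD, where one mouse of each group overlapped (-1.07, 95% interval -1.88 to -0.27). For Gbp2 the levels were 3.56, 3.25 and 2.82 FPKM in NCD+CUR and 4.39, 4.86 and 4.46 FPKM in NCD (-0.50), and for Gbp7 they were 2.23, 2.16 and 2.59 FPKM in NCD+CUR and 3.35, 2.74 and 3.70 FPKM in NCD (-0.47). Both genes had every NCD+CUR mouse below every NCD mouse.

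In limma with the block within diet, Stat2 rose with curcumin on NCD (adjusted p = 0.0591, background 4.36%). Gbp7 (0.0720) and Rnf125 (0.0855) fell (background 3.79%). The labels do not give the pairing, except that replicate 3 of both groups was 107 weeks of age and the other NCD-fed mice 99 weeks. On NCD the block is thus partly a match of age. Without NCD replicate 2, 1 gene rose and 1 fell in the fit without a block, and 899 of all tested genes were then called. Irf3 was 39.6, 42.9 and 41.1 FPKM in NCD+CUR, against 33.6, 38.6 and 33.3 FPKM in NCD (0.23, adjusted p = 0.366), and Ifih1 was 5.77, 4.83 and 5.99 FPKM in NCD+CUR, against 6.28, 4.99 and 7.45 FPKM in NCD (-0.16, adjusted p = 0.712). In Irf3 the groups did not overlap, and in Ifih1 they did.

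Whether curcumin acted differently on the 2 diets was tested as a difference of differences. None of the 35 genes passed (0.00% of all tested genes in both directions), nor did any with the block within diet. Without the block none had an unadjusted p under 0.05 in limma, where 0.882% of all genes were higher and 0.493% lower. With the block Ifi44 (-0.60) and Oas1a (-0.47) were lower at that level (background 2.71%) and none was higher (background 2.72%), and both had an adjusted p of 0.826 in limma. The estimate for Stat2 was 0.23 (95% interval -0.18 to 0.64), for Ifih1 -0.36 (-0.90 to 0.19) and for Rnf125 -0.74 (-1.88 to 0.40). The changes of Stat2, Ifih1 and Rnf125 on HFHSD are thus not shown to differ from those on NCD, and the intervals are too wide to show that they were alike.

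The rest of the pathway was read from a list of 97 other genes, of which 78 were tested. The ligands were at or near 0: of 9 interferon genes none reached the filter, 7 of them were listed at 0 in all 12 libraries, and Ifng had at most 0.236 FPKM. Receptors were expressed. Ifnar2, a chain of the type I receptor, averaged 71.8 ± 7.36 FPKM in HFHSD+CUR, 67.3 ± 7.62 in HFHSD, 69.4 ± 3.83 in NCD+CUR and 60.5 ± 7.85 in NCD (SD, n = 3 each). Ifnar1, Ifngr1, Ifngr2 and Ifnar2 passed in no comparison, Ifnlr1 of the type III receptor was under the filter, and Il10rb, which that receptor shares with the interleukin-10 receptor, rose with curcumin on HFHSD (0.56, adjusted p = 0.0459).

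Among the kinases and STAT proteins behind the receptors, Jak2 and Stat3 fell with curcumin on HFHSD (-0.32, adjusted p = 0.0868, and -0.43, adjusted p = 0.0686), and Jak1 and Tyk2 did not pass. Over the 78 genes, 9 rose (background 2.74%) and none fell (background 1.87%) in HFHSD against NCD, and 10 rose (background 2.07%) and none fell (background 1.55%) in HFHSD+CUR against NCD+CUR. The 3 with the smallest p in HFHSD against NCD were Gbp10 (2.86), Gbp6 (1.45) and Cish (1.47), an inhibitor of cytokine signalling that growth hormone also induces, and Gbp6 and Cish passed in HFHSD+CUR against NCD+CUR as well (1.56 and 1.52).

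Of this longer list 13 rose (background 13.1%) and 12 fell (background 17.2%) with curcumin on HFHSD, shares near those of all tested genes, with a median log2 fold change of 0.06. Cxcl11 (a chemokine, 0.92), Ifi203 (1.01) and Nlrc5 (an activator of MHC class I genes, 0.60) rose with the smallest p, and Ptpn11 (a phosphatase, -0.60), Zc3hav1 (an antiviral zinc-finger protein, -0.88) and Dtx3l (a ubiquitin ligase, -0.45) fell. On NCD none of the 78 passed in limma (at unadjusted p under 0.05, 4 were higher, background 6.83%, and 6 lower, background 7.17%), and with the block within diet 4 rose (background 4.36%) and none fell (background 3.79%).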

How the data were processed

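Liver mRNA of 12 aged mice (3 per group) was sequenced from stranded libraries. Per the labels, the authors aligned reads to mm10 with TopHat2 2.0.13 and made FPKM values per gene with Cuffdiff 2.2.1. The deposited FPKM table of 23997 genes by 12 libraries was used. A deposited table of the authors' own comparisons (fold changes, p-values) was not used. The table holds no read counts per gene, and the intervals given cover only the spread between mice.

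The 10545 genes averaging 1 FPKM or more were tested in limma 3.58.1 (R 4.3.3) on log2(FPKM + 0.1), all groups fitted together with trend and robust moderation and Benjamini-Hochberg adjustment over all tested genes, and called at an adjusted p under 0.1 (two-sided). "Rose" and "fell" are used for these calls. Fold changes on this scale understate those of low genes. The model was tested on simulated data with independent mice and the same spread in all groups. The real groups differed in spread and same-numbered mice deviated together, which that test does not cover. The 35 genes, the marker and pathway lists and the tests were chosen with earlier results of these data known. All 35 genes are named. Values in every mouse are given for genes called in a comparison (without a block), the transcription factors and the 3 most abundant genes. Other pathway genes are named if they are receptors, kinases or STATs or among the 3 with the smallest p in a direction. Those that overlap or resemble one of the 35 are named in part. A gene of the pathway list is not reported here by name.

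Same-numbered mice deviated together within each diet (correlations of deviations from the group means of 0.156, 0.350 and 0.178 on HFHSD, and 0.339, 0.300 and 0.527 on NCD for replicates 1, 2 and 3). Across diets the correlations were 0.00341, 0.0428 and 0.236 between HFHSD and NCD, and 0.0189, -0.0721 and 0.0990 between HFHSD+CUR and NCD+CUR. The value of 0.236, for replicate 3, was above the 0.156 and 0.178 on HFHSD. The labels do not say what a number stands for. On NCD, replicate 3 of both groups was 107 weeks of age and the others 99 weeks. A block within diet is therefore reported beside the curcumin comparisons. Alternatives were other pseudocounts, filters, scalings, covariates (age, mapped reads), thresholds, a correction for GC content and length, and leaving out each library. Promoters and gene positions came from RefSeq (GRCm38.p6).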

Additional observations from a re-analysis of the deposited data

How the results depend on the processing

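Against 3196, 0, 486 and 381 of all tested genes called in HFHSD+CUR against HFHSD, NCD+CUR against NCD, HFHSD against NCD and HFHSD+CUR against NCD+CUR, alternatives moved the counts as follows, and the cause was not tested unless fewer samples or genes entered. Counts that moved little are left out. In HFHSD+CUR against HFHSD 2 of the 35 rose and 3 fell. There the replicate block within diet gave 8 and 7 (4815 of all genes). With the GC and length trend also removed it gave 3 and 4 (4665). Mapped reads as a covariate gave 1 and 3, and a fit of only the groups compared 1 and 2. An adjusted p under 0.05 gave 1 and 1 (2011), and removal of the GC and length trend 1 and 1. Omission of replicate 1 from both HFHSD-fed groups gave 1 and 1 (1835), and of replicate 3 from both 0, 0 and 0. In NCD+CUR against NCD, the block within diet gave 1 rose and 2 fell (860), and with the GC and length trend also removed 1 rose (199). In HFHSD against NCD 7 rose and 0 fell. There a replicate block over all 12 samples gave 10 and 1 (876), and age as a covariate 13 and 1 (2040). A fit of only the groups compared called 270 of all genes, and an adjusted p under 0.05 gave 2 rose (184). Omission of both replicates 1 called 170 of all genes, and of both replicates 3 gave 18 rose. The diet contrast averaged over both arms gave 20 and 1 (2166). That contrast gave 17 and 1 (1671) without HFHSD+CUR replicate 1, and 6 and 0 (519) on means of same-numbered mice of a diet. In HFHSD+CUR against NCD+CUR (6 rose, 0 fell), no filter gave 2 rose (211), the block over all 12 samples 10 and 1 (798), age 11 and 1 (1665), mapped reads 102 of all genes, only the groups compared 181, an adjusted p under 0.05 1 rose (56), omission of both replicates 1 1 rose (31) and of both replicates 3 15 rose (167). The averaged contrasts and the omissions of 2 libraries were chosen after seeing the data.

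With 1 library left out in turn, 1 to 3 rose and 1 to 3 fell in HFHSD+CUR against HFHSD (1228 to 3495 of all genes), 0 to 1 and 0 to 1 in NCD+CUR against NCD (0 to 899), 0 to 11 and 0 to 1 in HFHSD against NCD (55 to 1747), 0 to 13 and 0 to 1 in HFHSD+CUR against NCD+CUR (5 to 635), and 0 to 0 in the difference between the curcumin effects (0 to 1). The 18 calls of single genes, each under up to 30 alternatives (515 in all), kept their side of the threshold in 366, lost it in 149 and reversed direction in 0. The block within diet could not be fitted to the diet comparisons. With 3 mice a group, low FPKM values carry an unknown counting error.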
